A study of Mus musculus with 2 samples.

Results

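The BCL2 family decides whether a T cell keeps its mitochondria intact or dies by the intrinsic pathway of apoptosis, and 10 of its genes were followed here by symbol in the deposited tables: Bcl2, Bcl2l1, Mcl1, Bcl2a1b, Bcl2a1d, Bak1, Bcl2l11, Bad, Bid and Bmf. All 10 were found, once each, among 23282 rows. They were compared between 1 control and 1 TSA-treated culture of Treg cells. TSA is Tubastatin A, an inhibitor of the cytoplasmic deacetylase HDAC6. Naïve CD4+ T cells from the spleens of wild-type C57BL/6 mice aged 7 to 10 weeks were stimulated with plate-bound anti-CD3ε (5 μg/ml) and soluble anti-CD28 (2 μg/ml). In both groups the medium held IL-2 (1 ng/ml), TGF-β1 (5 ng/ml) and antibodies against IFN-γ and IL-4 (10 μg/ml each), which is the mixture used to induce Treg cells. The control culture received DMSO and the other received 10 μM TSA, and RNA was taken after 1 day. A sort for Foxp3+ cells before RNA isolation is not given in the sources used here, so the values describe the whole culture. In such bulk RNA, fewer cells of a type and less RNA per cell cannot be told apart.

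The family has 3 kinds of members. The pro-survival proteins (BCL-2, BCL-XL, MCL-1 and A1) sit on the outer mitochondrial membrane and bind their pro-death relatives. BAK and BAX form the pores through which cytochrome c escapes. The BH3-only proteins, such as BIM, BAD, BID and BMF, sense stress or loss of growth factors and either block the pro-survival proteins or switch on the pore formers. In T cells, IL-2 and CD28 signals are known to raise BCL-XL and MCL-1, naïve cells depend on BCL-2, and BIM removes activated and regulatory T cells when cytokine runs out.

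QuantSeq libraries were sequenced, in which reads come from the polyadenylated end of a transcript, so that read numbers are not divided by gene length. The deposited values are log2 of a normalized count plus 1, and low values returned whole reads in both libraries, 10846045 in the control and 10432333 in the TSA library. Differences are the deposited TSA value minus the control value, and folds are the same taken out of the log2 scale. Folds of single genes thus hold the 1 added count, which their intervals do not. At few reads such a fold lies nearer to no change than the ratio of reads. Each 95% interval of a fold was taken from the split of a gene's reads between the libraries (exact Clopper-Pearson), and it covers counting error of these 2 libraries, not the spread between cultures, because each condition had 1 library and no difference has a replicate check. Genes that averaged 100 or more normalized counts over both libraries are called well-read below. The T cell genes Cd3d, Cd3e, Cd3g, Cd4, Cd28 and Il2ra held 18312 and 17949 reads in sum. Markers of other cells were scarce. In the control and the TSA library, 6 myeloid genes summed to 60 and 44 reads, 4 CD8 and NK cell genes to 80 and 88, most of them from Cd8b1, and 5 erythroid genes to 43 and 58. Of the latter, Hbb-bs had 4 and 17 reads, with an interval of the fold above no change (1.37 to 17.2). Of the B cell genes, Ms4a1 had 0 and 5 reads, Cd79a 1 and 5, and Cd79b 11 and 4. The NK cell gene Ncr1 had 0 and 1 reads, the macrophage gene Adgre1 had 4 and 0, and Klrb1c and Hba-a2 were at 0 in both. The part of such cells in the differences below was not tested.

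Bcl2a1b and Bcl2a1d are copies of one gene, together with Bcl2a1a, and their sequences are shown because they limit what the values of these rows mean. The last 120 coding bases, stop codon included, are given for each copy from GENCODE M21, with the positions at which the 3 copies differ in capitals.
Bcl2a1a: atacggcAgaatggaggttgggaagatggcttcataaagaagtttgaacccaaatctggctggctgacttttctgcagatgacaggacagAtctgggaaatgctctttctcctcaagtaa
Bcl2a1b: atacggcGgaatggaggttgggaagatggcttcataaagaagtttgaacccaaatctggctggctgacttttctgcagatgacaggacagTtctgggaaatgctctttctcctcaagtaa
Bcl2a1d: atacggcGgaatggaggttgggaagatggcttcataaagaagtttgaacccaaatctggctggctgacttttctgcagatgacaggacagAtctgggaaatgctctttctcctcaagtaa
In this stretch 2 positions differ among the copies, and over the 519 coding bases 12 do. Bcl2a1b and Bcl2a1d share 98.8% of their coding bases, Bcl2a1a and Bcl2a1d 98.7%, and Bcl2a1a and Bcl2a1b 97.9%. In the last 300 bases of the transcript, where QuantSeq reads start, 94.2% of all 75-base windows of Bcl2a1d occur unchanged in Bcl2a1a or Bcl2a1b, against 60.2% for Bcl2a1b and 49.6% for Bcl2a1a. How the authors placed reads that match several copies is not given in the sources used here. The values of single copies are therefore uncertain, and sums over the copies are given beside them. The sums also depend on whether reads that match several copies were dropped or counted more than once.

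The members spanned a wide range of levels. In the control library Mcl1 was highest with 3186 reads, followed by Bcl2l1 (1744), Bcl2 (1342), Bcl2a1b (898) and Bcl2a1d (628), so the 5 pro-survival genes held the top 5 places. Bad (394), Bid (318), Bak1 (280) and Bcl2l11 (215) followed, and Bmf had 3 reads. The order in the TSA library differed at 2 places. Bcl2 stood above Bcl2l1, and Bcl2l11 stood above Bak1. Between neighbours in this order, the 95% intervals of the shares overlapped for Bid and Bak1 in the control library, and for Bid and Bcl2l11 and for Bcl2l11 and Bak1 in the TSA library. The plot of member levels shows both orders.

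**Figure D1:**
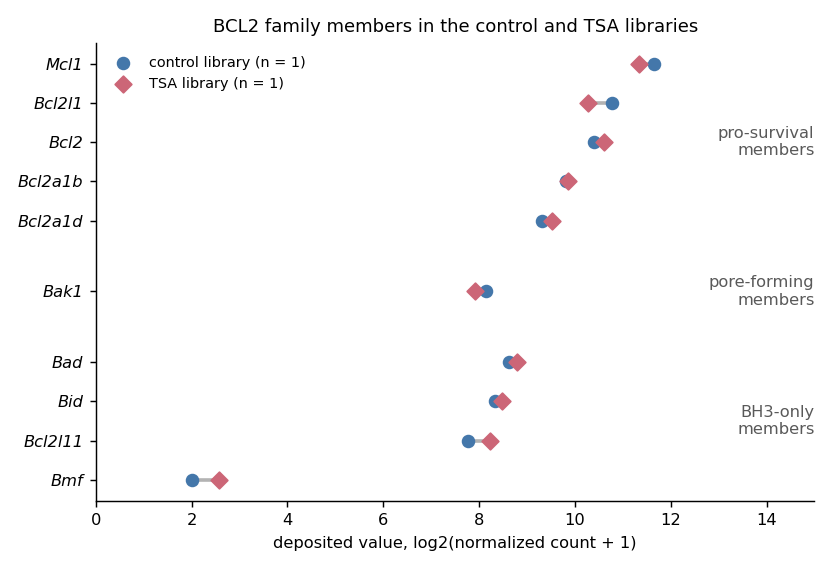
Deposited value of each of the 10 members, as log2 of the normalized count plus 1 (x axis), with a point per library and a grey line between them, ordered within pro-survival, pore-forming and BH3-only members by control reads. Mcl1 and Bcl2l1 lie to the left of their control point in the TSA library, Bcl2 and Bcl2l11 lie to the right, and Bmf, with 3 and 5 reads, lies far below the others.

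Differences of the members were small beside those of many other genes. Of the 10 members, 9 passed the minimum of 10 reads in at least 1 library. None of them differed by more than 2-fold. Of all 12164 genes tested, 11.5% were more than 2-fold higher and 3.15% more than 2-fold lower in the TSA library, 14.7% in all. Of the 8188 well-read genes, among which all 9 lie, 1.48% were more than 2-fold higher and 1.31% lower, 2.78% in all. By the counting interval, 3 of the 9 members were higher (Bcl2, Bcl2a1d and Bcl2l11) and 2 were lower (Bcl2l1 and Mcl1), and the intervals of the other 4 included no change. By that rule 28.1% of all genes tested were higher and 28% lower, 56.1% in all, and of the well-read genes 23.4% were higher and 36.5% lower, 59.9% in all. With the deposited scaling, the count of members beyond counting error was thus close to the share among genes in general. With scaling by total reads, 5 of the 9 members were higher and 2 lower. Of all 12164 genes, 4096 were then higher and 2631 lower in place of 3416 and 3405, so the members stood above the general share. The median log2 difference of the 9 members was 0.15, beside 0.015 for all genes tested and -0.058 for well-read genes.

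**Figure D2:**
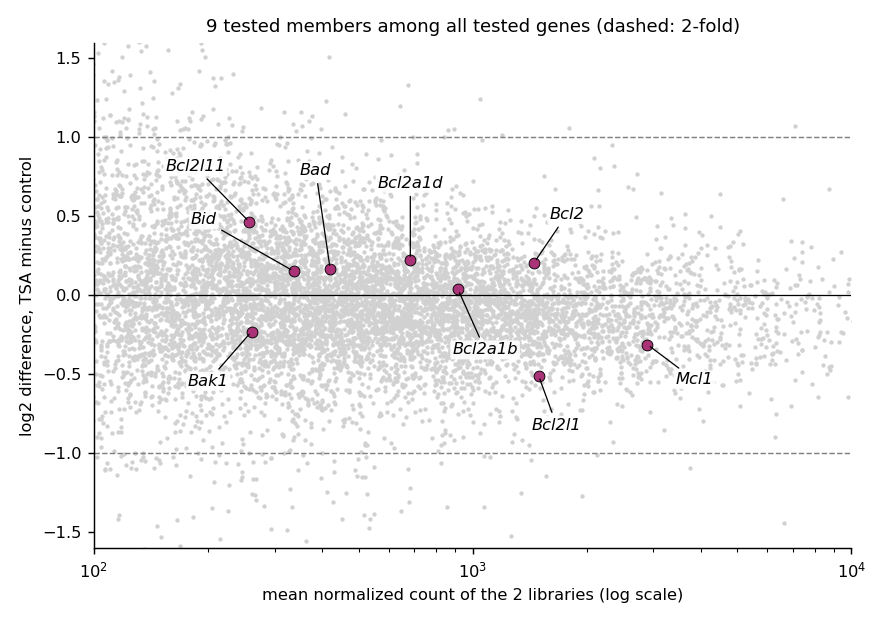
Log2 difference (TSA minus control, y axis) against the mean normalized count of both libraries (x axis, log scale) for 8057 tested genes in the window drawn (grey) and the 9 tested members (labelled), with dashed lines at 2-fold. All 9 members lie between the dashed lines, from Bcl2l1 at -0.51 to Bcl2l11 at 0.46.

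Among the pro-survival members, 2 of 5 were lower in the TSA library and 2 were higher by more than counting error, beside 28% and 28.1% of all genes tested and 36.5% and 23.4% of well-read genes. Bcl2l1 encodes BCL-XL, the pro-survival protein that T cells make on activation. Its deposited log2 value was 10.78 in the control and 10.27 in the TSA library (1744 and 1238 reads), a fold of 0.703 with a 95% interval of 0.653 to 0.756. It was the largest difference of the 9 members with enough reads, and 8.60% of all well-read genes had a difference as low or lower. Mcl1, whose product is short-lived and which T cells need to survive, had log2 values of 11.65 and 11.33 (3186 and 2593 reads), a fold of 0.806 (0.765 to 0.849). At that size it was less unusual, since 21.3% of those genes were as low or lower.

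Bcl2 itself, the survival gene of resting T cells, went the other way. It had log2 values of 10.40 and 10.61 (1342 and 1565 reads), a fold of 1.16 (1.07 to 1.24), and 22.1% of the well-read genes were as high or higher. Bcl2a1d, a copy of the activation-induced A1 gene, had log2 values of 9.30 and 9.53 (628 and 741 reads), a fold of 1.17 (1.05 to 1.30). Bcl2a1b had 898 and 931 reads, a fold of 1.03, and its interval of 0.936 to 1.13 included no change. The reads of both copies summed to 1526 and 1672, a fold of 1.08 (1.01 to 1.16), and with Bcl2a1a to 1863 and 2016, a fold of 1.07 (1.01 to 1.14). The sums thus stood above no change by less than Bcl2a1d alone.

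Bak1, the member that forms pores, had log2 values of 8.14 and 7.91 (280 and 241 reads), a fold of 0.853, and the interval of 0.714 to 1.02 included no change. Its fellow pore former outside the list, Bax, had 267 and 167 reads, a fold of 0.621 (0.507 to 0.754). This was lower by more than counting error, and 3.74% of all well-read genes were as low or lower. Bok, the remaining pore-forming relative, had 4 and 3 reads, too few to compare.

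Of the 3 BH3-only members with enough reads, 1 was higher in the TSA library by more than counting error, a share near that of all genes tested (28.1%). Bcl2l11 encodes BIM, which binds every pro-survival member. It had log2 values of 7.76 and 8.23 (215 and 300 reads), a fold of 1.38 (1.16 to 1.65), and 8.85% of the well-read genes were as high or higher. Bad, whose product is held by 14-3-3 proteins while growth factor kinases are active, had 394 and 447 reads, a fold of 1.12 (0.979 to 1.29). Bid, which links caspase-8 to the mitochondria, had 318 and 357 reads, a fold of 1.11 (0.953 to 1.30). The intervals of both included no change as deposited. With scaling by total reads, Bad (1.03 to 1.35) and Bid (1.001 to 1.36) lay just above it. Bmf had 3 and 5 reads, under the minimum of 10 for testing, and a difference in Bmf was not detectable at this depth (fold 1.49, 0.321 to 10.6).

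**Figure D3:**
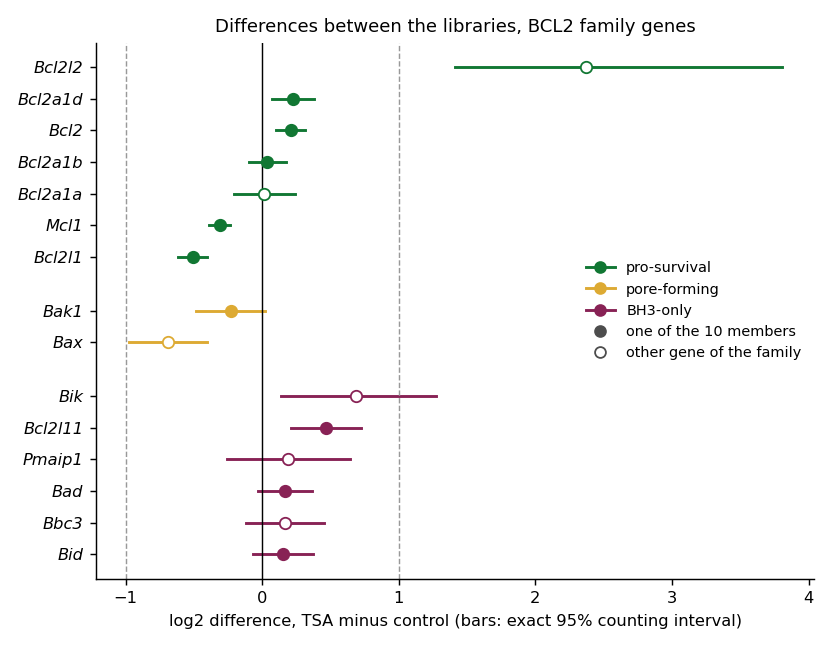
Log2 difference (TSA minus control, x axis) of the 15 genes of the core family with at least 10 reads in a library, coloured by role, with filled points for the members and open points for other genes of the family; horizontal bars are exact 95% counting intervals and dashed lines mark 2-fold. Bcl2l1 and Mcl1 lie left of 0 with their whole interval, as does Bax, while Bcl2, Bcl2a1d and Bcl2l11 lie right of it, and Bcl2l2, with 8 and 46 reads, is the single gene past 2-fold.

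Shares within the family do not depend on how the libraries are scaled against each other. Together the 10 members had 9008 reads in the control and 8418 in the TSA library. Mcl1 made up 35.4% of them (exact 95% interval 34.4 to 36.4) in the control and 30.8% (29.8 to 31.8) in the TSA library. Bcl2l1 went from 19.4% (18.5 to 20.2) to 14.7% (14.0 to 15.5), and Bcl2 from 14.9% (14.2 to 15.7) to 18.6% (17.8 to 19.4). Bcl2l11 went from 2.39% (2.08 to 2.72) to 3.56% (3.18 to 3.98), Bcl2a1d from 6.97% (6.45 to 7.52) to 8.80% (8.21 to 9.43) and Bad from 4.37% (3.96 to 4.82) to 5.31% (4.84 to 5.81). In each of these cases the intervals of the libraries were apart. For Bad this ended when Mcl1 was left out of the total, where its shares were 6.77% (6.14 to 7.44) and 7.67% (7.003 to 8.39). The intervals of Bcl2a1b overlapped (9.97%, 9.36 to 10.6, and 11.1%, 10.4 to 11.7), as did those of Bid (3.53%, 3.16 to 3.93, and 4.24%, 3.82 to 4.69). The direct intervals of the change in odds (TSA over control) still excluded 1, at 1.12 (1.02 to 1.24) for Bcl2a1b and 1.21 (1.03 to 1.42) for Bid. Without Mcl1 in the total they included 1 (0.943 to 1.15 and 0.964 to 1.32). Bcl2a1b and Bcl2a1d together held 16.9% (16.2 to 17.7) and 19.9% (19.0 to 20.7). Grouped by role, the pro-survival members held 86.6% and 84.0% of the reads, and the BH3-only members 10.3% (9.70 to 11.0) and 13.2% (12.5 to 13.9). With the other genes of the core family included, BH3-only genes held 12.6% and 16.0% of all family reads and the pore formers 5.54% and 4.39%.

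**Figure D4:**
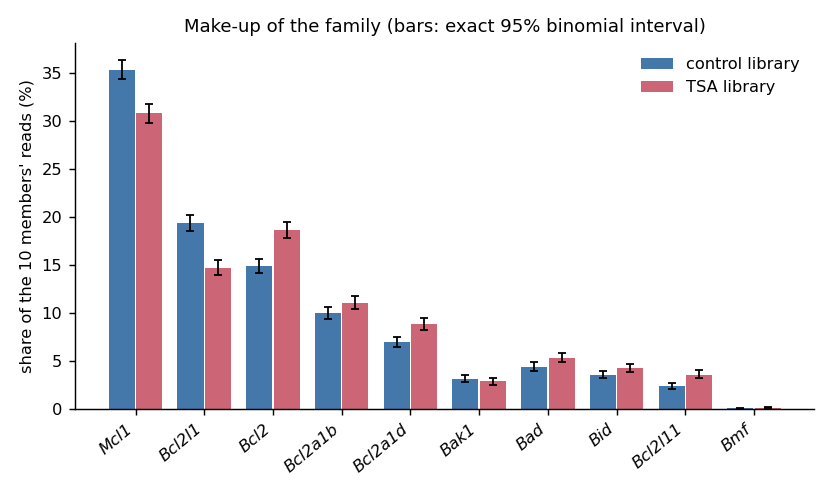
Share of the reads of the 10 members (y axis, percent) that each member held in the control and the TSA library, with exact 95% binomial intervals as error bars. The bars of Mcl1 and Bcl2l1 are shorter in the TSA library and those of Bcl2, Bcl2a1d, Bad and Bcl2l11 taller, with intervals that do not overlap, though those of Bad overlap when Mcl1 is left out of the total.

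Ratios between pairs of members were also taken within each library. There were 2.37 reads of Mcl1 for each read of Bcl2 in the control and 1.66 in the TSA library, a change of 0.698-fold (exact 95% interval 0.638 to 0.764). The ratio of Bcl2l1 to Bcl2 went from 1.30 to 0.791, a change of 0.609-fold (0.548 to 0.676), so that Bcl2 reads outnumbered Bcl2l1 reads after TSA and not before. The ratio of Bcl2l11 to Mcl1 went from 0.0675 to 0.116, a change of 1.71-fold (1.42 to 2.07). The ratio of Bcl2l11 to Bcl2 went from 0.160 to 0.192, and the interval of that change, 0.986 to 1.45, included 1. Bcl2l11 to Bcl2l1, a pair chosen after the values were seen, went from 0.123 to 0.242, a change of 1.97-fold (1.62 to 2.39).

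In GENCODE M21 on GRCm38, the build that the submitters' processing notes call mm10, all 10 members are protein-coding genes, and 3 lie on chromosome 2. Bcl2l1 is on its minus strand from 152780668 to 152831728, Bcl2l11 on its plus strand from 128126038 to 128162547 and Bmf on its minus strand from 118528757 to 118549687. Bcl2 is on chromosome 1 from 106538178 to 106714274 and Mcl1 on chromosome 3 from 95658788 to 95663176. Bcl2a1d (88723285 to 88731914) and Bcl2a1b (89199209 to 89207827) are both on chromosome 9, Bid is on chromosome 6 from 120891930 to 120916853, Bak1 on chromosome 17 from 27019810 to 27029009 and Bad on chromosome 19 from 6941861 to 6951899. Several genes have more than 1 annotated transcript, 9 for Bcl2l1 and 8 for Bcl2l11, and reads from the transcript end do not tell the long from the short form of BCL-X, nor the forms of BIM. The ends of Bid and of Bcl2l13, a relative on the opposite strand, share 913 bases, and Bak1 lies inside Ggnbp1 on the opposite strand. Bcl2a1b shares 8449 bases, its end included, with the protein-coding gene Gm29094 on the same strand, so that counting by strand could not separate them, and the end of Bcl2a1d is covered by the antisense gene Gm10634. No value of Gm29094 or Gm10634 is used here. Whether reads were counted by strand is not given in the sources used here. Bcl2l13 had 412 and 416 reads and Ggnbp1 had 2 and 16, and their part in the Bid and Bak1 values was not tested.

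The promoters of 3 members are shown because they are the members with the largest differences among the 9 tested, Bcl2l1 and Mcl1 lower and Bcl2l11 higher. All 10 members had an entry in the promoter table. Each window runs from 250 bases before to 50 after the start site, from RefSeq on GRCm38.p6, written along the strand of the gene, with matches to the motifs searched in capitals. The windows are chr2:152831679-152831978 for Bcl2l1 (minus strand), chr3:95658471-95658770 for Mcl1 (plus strand) and chr2:128125788-128126087 for Bcl2l11 (plus strand).
Bcl2l1: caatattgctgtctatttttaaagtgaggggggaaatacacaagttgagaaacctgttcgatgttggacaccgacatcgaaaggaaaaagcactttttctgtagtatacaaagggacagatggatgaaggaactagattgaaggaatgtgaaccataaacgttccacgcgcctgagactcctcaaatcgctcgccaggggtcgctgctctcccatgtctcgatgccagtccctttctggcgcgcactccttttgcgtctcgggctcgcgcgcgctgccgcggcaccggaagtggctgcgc
Mcl1: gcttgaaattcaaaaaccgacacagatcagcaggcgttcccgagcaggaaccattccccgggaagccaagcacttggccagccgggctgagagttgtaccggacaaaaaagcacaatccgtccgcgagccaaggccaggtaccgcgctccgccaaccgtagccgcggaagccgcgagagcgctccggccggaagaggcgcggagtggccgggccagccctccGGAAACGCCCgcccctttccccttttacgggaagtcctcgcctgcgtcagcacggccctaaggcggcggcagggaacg
Bcl2l11: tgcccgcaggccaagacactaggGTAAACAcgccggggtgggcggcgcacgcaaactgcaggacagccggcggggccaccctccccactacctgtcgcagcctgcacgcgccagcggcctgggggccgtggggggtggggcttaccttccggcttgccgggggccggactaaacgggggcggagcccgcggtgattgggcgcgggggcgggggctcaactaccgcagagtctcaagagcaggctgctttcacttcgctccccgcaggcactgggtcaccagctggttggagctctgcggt
The motifs were TTCNNNGAA for STAT factors, which act downstream of IL-2, TGTTTAC for FOXO factors, known activators of BIM, and GGGNN followed by TTTCC for NF-κB, known to act on A1. They were read on both strands and the motifs do not contain one another. The promoter of Bcl2l11 held 1 FOXO match, with its first base at position -227 from the start site, and that of Mcl1 held 1 NF-κB match, with its first base at position -28. That position counts from the RefSeq start, since the Mcl1 window ends at 95658770, before the GENCODE start at 95658788. No other promoter of the 10 members held a match to any of the 3. Of 32851 promoters of this length, 3.65% held the FOXO letters, 1.63% the NF-κB letters and 8.30% the STAT letters. A match describes letters in this window and says nothing of binding.

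Other genes of the core family mostly had few reads. Bcl2l2, which encodes the pro-survival protein BCL-W, had 8 and 46 reads, a fold of 5.17 (2.66 to 14.0), the only one of the 15 family genes tested that passed 2-fold. It passed the minimum of 10 reads through the TSA library alone, so that a gene with its control level could enter only by being higher there. Bcl2a1a had 337 and 344 reads, a fold of 1.01 (0.867 to 1.18). Among BH3-only genes, Bik had 44 and 72 reads, a fold of 1.61 (1.10 to 2.41), while the intervals of Bbc3, which encodes PUMA (196 and 222 reads, 0.921 to 1.37), and Pmaip1, which encodes NOXA (79 and 91 reads, 0.835 to 1.56), included no change. Hrk and Bcl2l10 had no reads in either library, and Bcl2a1c had 3 and 0. In all, 2 of 6 tested BH3-only genes, members included, were higher by more than counting error, beside 28.1% of all genes tested, and 4 of 6 with scaling by total reads, beside 4096 of all 12164 genes. The values of all 6 were higher in the TSA library by some amount, as were those of 6246 of 12164 genes tested and 3502 of 8188 well-read genes.

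Of the 5 tested relatives outside the core family, 2 were higher by more than counting error and none was lower, beside 28.1% and 28% of all genes tested. With 10 reads required in both libraries, Bnip3l alone of the 2 remains. Bnip3l, which marks mitochondria for removal, had 698 and 809 reads, a fold of 1.15 (1.04 to 1.27), and Bnip3, its near relative, 85 and 96 (fold 1.12, 0.826 to 1.52). Bcl2l12 had 121 and 112 reads, a fold of 0.917 (0.702 to 1.20), and Bcl2l13 had 412 and 416 reads with equal deposited values (interval of the fold 0.870 to 1.15). Bcl2l15 had 3 and 15 reads, with a fold of 3.96, which holds the added count, and a wide interval of 1.40 to 26.7, which does not.

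Proteins that hold or modify family members were examined as a list of 15, all tested. Of these, 2 were higher and 7 lower by more than counting error, beside 28.1% and 28% of all genes tested and 23.4% and 36.5% of well-read genes. With scaling by total reads, which moves every gene alike, the counts were 5 and 5, beside 4096 and 2631 of all 12164 genes. The median log2 difference was -0.078, and none passed 2-fold. Ywhae, a 14-3-3 protein of the kind that holds phosphorylated BAD, had 10132 and 7501 reads, a fold of 0.733 (0.711 to 0.755). Dynll1, the dynein light chain that binds BIM, had 2382 and 1829 reads, a fold of 0.760 (0.715 to 0.808). The highest were the kinases Pim1, with 2554 and 2855 reads (fold 1.11, 1.05 to 1.17), and Pim3, with 2100 and 2259 reads (fold 1.07, 1.003 to 1.13).

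Downstream of the pores, the list of 7 genes for mitochondrial release and the apoptosome gave 2 with an interval above no change and 3 with one below it, beside 28.1% and 28% of all genes tested. The counts were 3 and 3 with scaling by total reads (4096 and 2631 of all genes), and 3 and 1 without Rn45s, the ribosomal RNA precursor (4242 and 2503 of all genes). Casp9, the initiator caspase of the apoptosome, had 43 and 106 reads, a fold of 2.41 (1.70 to 3.57), and Apaf1, its scaffold, 150 and 205 reads, a fold of 1.35 (1.09 to 1.68). Cycs, which encodes cytochrome c, had 2356 and 1919 reads, a fold of 0.807 (0.759 to 0.857), and Endog, a mitochondrial nuclease, 391 and 321 reads, a fold of 0.813 (0.699 to 0.945) with an interval that included no change under the scaling without Rn45s.

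A further list held 11 genes, of caspases, of caspase inhibitors and of the apoptotic DNase with its inhibitor (Dffb and Dffa). Of these, 4 had an interval above no change and 4 below it, beside 28.1% and 28% of all genes tested. With scaling by total reads the counts were 5 and 3 (4096 and 2631 of all genes), and 5 and 2 without Rn45s (4242 and 2503). Birc5, which encodes survivin, a protein of dividing cells, had 1527 and 609 reads, a fold of 0.395 (0.359 to 0.434), and was the single gene of the list past 2-fold. Birc3, an inhibitor of apoptosis that NF-κB induces, had 376 and 293 reads, a fold of 0.773 (0.660 to 0.901). Casp6, an executioner caspase, had 55 and 89 reads (fold 1.59, 1.13 to 2.29), and Dffa, the inhibitor and chaperone of the apoptotic DNase, 352 and 527 reads (fold 1.48, 1.29 to 1.70).

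In the death receptor pathway, which joins the BCL2 family through BID, 4 of 11 genes had an interval above no change and 4 below it, beside 28.1% and 28% of all genes tested. With scaling by total reads the counts were 6 and 4, beside 4096 and 2631 of all 12164 genes. Casp8, the initiator caspase that cuts BID, had 579 and 246 reads, a fold of 0.422 (0.361 to 0.489), and 0.550% of the well-read genes were as low or lower. Tnfrsf1b, a TNF receptor of Treg cells, had 2379 and 1455 reads, a fold of 0.606 (0.567 to 0.647). The receptor gene Fas was higher, with 138 and 249 reads (fold 1.78, 1.45 to 2.22), as was the gene of its ligand, Fasl, with 17 and 38 reads (fold 2.15, 1.22 to 4.18). Each of these 4 genes had a larger difference than any of the 9 tested members.

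**Figure D5:**
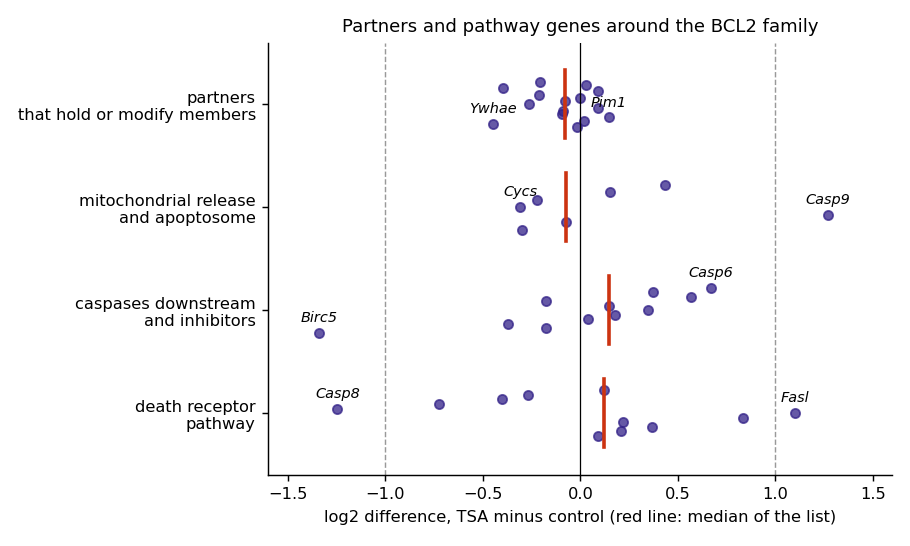
Log2 difference (TSA minus control, x axis) of the tested genes of 4 lists around the BCL2 family, 1 point per gene with a random vertical offset, a red line at the median of each list and dashed lines at 2-fold. Casp8 and Birc5 lie beyond 2-fold on the lower side and Casp9 and Fasl on the higher side, while the medians of the 4 lists lie between -0.078 and 0.15.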

How the data were processed

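The authors isolated total RNA with Trizol, prepared QuantSeq libraries and sequenced them as single-end 75-nt reads. Per the labels, the submitters' processing notes name Bowtie2, bedtools and mm10, and the methods name ExDEGA. The normalization and the counting by strand are not given in the sources used here. The authors deposited 1 log2 value per gene and library. Taken out of the log2 scale and less the added 1, the values were multiples of 1.005 (control) and 0.995 (TSA), which were read as whole reads (99.9% and 99.8% of values under 300 reads lay within 0.1 of a whole number), and values under 0.5 as 0 reads. For the members, rounding of the deposited values limits this to about 1.12 reads. Rn45s, the precursor of ribosomal RNA, held 8.72% and 9.63% of reads.

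The plan allowed for raw counts, but differences were taken between the deposited values, with their 1 added count. Genes with at least 10 reads in 1 library were tested. Without replicates no p-value was computed, and folds, exact Clopper-Pearson intervals, exact conditional intervals of ratios and shares and the 2-fold threshold of the study were used. Intervals cover counting error only, because each condition had 1 library. They take reads as independent, and PCR copies, which could not be told apart, would make them too narrow. The floor of 3 reads is a CPM (counts on a common library size) of 0.277 in the control and 0.288 in the TSA library. All 10 members were named, with every other tested gene of the core family and its relatives, and in each further list the 2 highest, the 2 lowest and any gene past 2-fold. The members and lists were chosen with earlier results of these data known. Python 3.11.15, numpy 2.4.6, scipy 1.17.1 and pandas 2.3.3 were used, and the steps were tested on simulated data. Alternatives covered scaling, the pseudocount, the filter, the threshold, the interval and the make-up of the family. The summed level of the B cell markers is not reported here.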

Additional observations from a re-analysis of the deposited data

How the results depend on the processing

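No paired analysis was possible because each condition had a single library, so that leaving out a replicate was not possible either. Under 5 scalings and 2 pseudocounts, each of the 10 members kept the direction of its difference; Bcl2l1 ranged from -0.51 to -0.42 and Bcl2l11 from 0.46 to 0.55. Of the values recomputed, 252 stayed within counting error or, for counts, 1.5 times, and 17 moved further. No member difference beyond counting error changed sign, but none could. The scalings shift the reads of all genes alike, by -0.0023 to 0.085 log2, and the smallest such difference was 0.208 (Bcl2). A pseudocount leaves the sign as it is. The 252 also hold odds of other members, which summing Bcl2a1b and Bcl2a1d cannot change. With scaling by total reads, with or without Rn45s, 5 members in place of 3 were higher by more than counting error (Bad and Bid were added), and without Rn45s Mcl1 was at -0.23 and the median of the partner list at 0.0067, on the other side of 0. Genes past 2-fold among all genes were 2817 higher and 1200 lower without a filter, 524 and 223 with 10 reads in both libraries, 121 and 107 among well-read genes (100 or more normalized counts on average), and 2279 and 1014 at 1.5-fold. Among well-read genes 1916 genes in all lay above no change by their interval. The median of the other pro-survival genes was 1.19 over the 2 tested (Bcl2l2 and Bcl2a1a), 0.0075 over all 4 without a filter, and 0.015 under both stricter filters, which leave Bcl2a1a alone. Without Mcl1, the odds that a member read came from Bcl2l1 (TSA over control) were 0.631 in place of 0.718. The depth limits statements on Bmf, Bok, Bcl2a1c, Hrk and Bcl2l10.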
